A study of Oryza sativa with 24 samples.

Results

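The genes that make and use small RNAs in rice (Oryza sativa) were followed in the tap mutant and wild type (WT) through developing inflorescences. The set holds 30 of the 26480 loci in the deposited count table. It was chosen by locus identifier and not by a measured value, but with earlier results of these data known. It has 19 Argonautes, 6 Dicer-like genes (DCL1, DCL2a, DCL2b, DCL3a, DCL3b and DCL4), 3 RNA-dependent RNA polymerases (RDR1, RDR2 and RDR6), SGS3 and WAF1/HEN1. All 30 identifiers were found in the table. The Argonautes MEL1 (LOC_Os03g58600), AGO18 (LOC_Os07g28850), PNH1 (LOC_Os06g39640) and SHL4/AGO7 (LOC_Os03g33650) are called by name, and the other 15 by identifier, because the files do not pair identifiers with names.

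Whole inflorescences of the rice line 9522 had been collected at lengths of 3 mm and 2 mm from tap and WT plants kept at high or low temperature. Genotype, length and temperature gave 8 groups of 3 libraries, which were tap and WT at 3 mm and high temperature, tap and WT at 2 mm and high temperature, tap and WT at 3 mm and low temperature, and tap and WT at 2 mm and low temperature. The title of the series calls TAP necessary for panicle and spikelet development when it is hot, so tap is compared with WT at each temperature, the dependence of that difference on temperature is tested, and temperatures and lengths are compared within each genotype. Not given in the sources used here are the degrees, the duration of the treatment, the mutated locus, the allele and the number of plants behind a library, and the sample titles call the mutant ild where the genotype field calls it tap. Mutant columns at high temperature bear a further name, iHT, and all values of tap at high temperature rest on reading them as tap.

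Dicers cut double-stranded or folded RNA into small RNAs, and Argonautes bind these and silence matching transcripts or chromatin. RNA-dependent RNA polymerases supply many Dicers with double-stranded RNA, with SGS3 as a partner of RDR6, and HEN1 protects the finished small RNA by methylating its end. In grass panicles this machinery is known for microRNAs and trans-acting siRNAs that pattern meristems and leaves, for repeat-derived siRNAs, and for phased siRNAs made in anthers and germ cells.

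Library totals were 19819257 to 21305381 counts. TMM factors, which scale library sizes, at high temperature were 0.905 to 0.978, and those at low temperature 1.033 to 1.075. Levels are given as CPM, read counts divided by TMM-scaled library size. The locus that carries the mutation could not be read as a check of the labels. The labelled tissue was not checked against marker genes for want of names, apart from MEL1, an Argonaute known from germ cells, which was read in all 24 libraries. Across 23658 tested loci, differences were tested with edgeR's quasi-likelihood test, and a locus was called at a Benjamini-Hochberg adjusted p under 0.05. Values after ± are standard errors for log2 differences and SDs over 3 libraries for levels.

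Of the 30 members, 27 passed the filter on low counts, among them 16 of the 19 Argonautes. The other 3 Argonautes were almost unread. LOC_Os03g47820 had 4 counts in all over the 12 high-temperature libraries and 33 over the 12 low-temperature libraries, LOC_Os03g47830 had 1 and 22, and LOC_Os07g09020 had 6 and 28. No difference was estimated for these 3. Over the whole table, 2215 to 2937 loci had no count in a high-temperature library, against 738 to 976 in a low-temperature library.

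In some libraries most members were at the lowest value of their group. Replicate 3 of tap at 2 mm and high temperature was the lowest of its 3 for 18 of the 27 tested members, replicate 2 of tap at 3 mm and high temperature for 18, and replicate 3 of WT at 3 mm and low temperature for 17. Replicate 1 of tap at 3 mm and low temperature was the lowest for 14 of 27. Counts of calls are also given without the first 3 of these libraries, called the 3 low libraries below, which keeps that replicate. The part of RNA quality or of differing tissue in these libraries was not tested.

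At high temperature, tap inflorescences had lower levels than WT of 14 of the 27 tested members and higher levels of 4, at each length. The members called made up 66.7% of those tested at either length, against 37.1% of all tested loci at 3 mm and 37% at 2 mm. Lower calls alone made up 17.8% of all loci at 3 mm and 18.6% at 2 mm, and higher calls 19.3% and 18.4%. The members' median log2 difference, tap minus WT, was -0.25 at 3 mm and -0.30 at 2 mm, against a median of 0 over all loci at both lengths. The same 12 members were lower at both lengths, a pattern seen at 11.6% of all loci, and the same 4 were higher at both, as were 12.6% of all loci. Because inflorescences were sampled whole, fewer cells of a type and less RNA per cell cannot be told apart here or in any later comparison.

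At low temperature, 2 members were lower and 6 higher in tap at 3 mm, and 3 were lower and 5 higher at 2 mm. That is 29.6% of the tested members at each length, against 11.7% of all loci at 3 mm and 15% at 2 mm. Of all loci, 6.18% were lower and 5.52% higher at 3 mm, and 7.3% lower and 7.67% higher at 2 mm. The same 2 members were lower at both lengths, as were 4.13% of all loci, and the same 5 were higher at both, as were 4.07%. The members' medians were 0.08 at 3 mm and 0.03 at 2 mm. Without the 3 low libraries, 13 members were lower and 5 higher at 3 mm and high temperature (66.7%, against 30.6% of all loci). At 2 mm 13 were lower and 4 higher (63%, against 31.8%). At low temperature those counts were 2 lower and 5 higher at 3 mm (25.9%, against 11.4%), and 3 lower and 6 higher at 2 mm (33.3%, against 17.7%). With the high-temperature libraries fitted alone, the calls of PNH1, DCL2b, RDR6 and LOC_Os03g57560 at 3 mm and of LOC_Os03g57560 and WAF1/HEN1 at 2 mm were lost (adjusted p of 0.0501 to 0.122). That left 11 lower and 3 higher at 3 mm, and 12 lower and 4 higher at 2 mm. Of the 21396 loci tested in that fit, 7149 were called at 3 mm and 7030 at 2 mm. The low-temperature libraries fitted alone gave 2 lower and 8 higher at 3 mm, and 3 lower and 6 higher at 2 mm. More loci were called over the whole table too, 4316 of 23033 at 3 mm and 5104 at 2 mm. In the main fit these were 2768 and 3542 of 23658. The main fit takes each locus's spread from both temperatures together. Chi-square per degree of freedom between replicates was 5.937 to 30.78 in high-temperature groups, against 3.386 to 13.48 in the others. The part of this shared spread in the calls was not tested. In the plot of genotype differences by member, high-temperature values lie mostly left of those at low temperature.

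**Figure D1:**
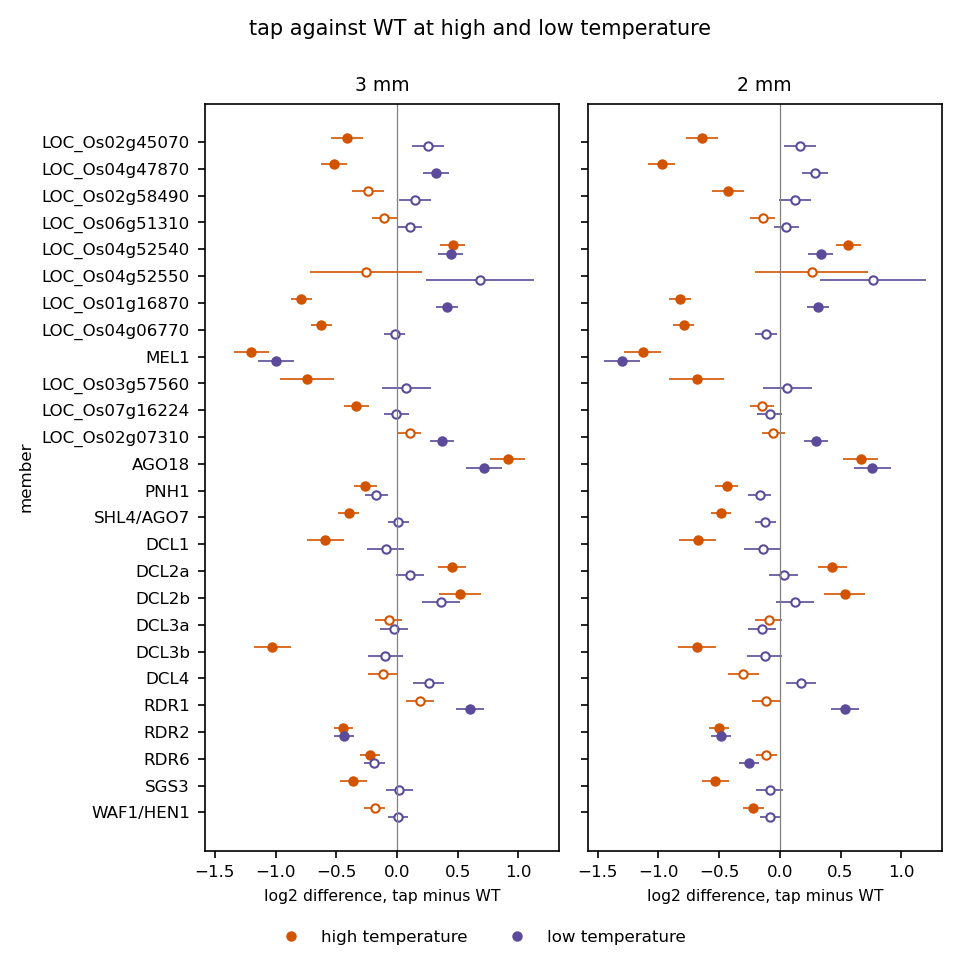
Log2 difference between tap and WT (x axis, tap minus WT) for 26 tested members (y axis) at 3 mm (left) and 2 mm (right), with LOC_Os01g16850 left out for its low counts. Orange points are high temperature and purple points low temperature, filled where called at an adjusted p under 0.05 and open where not, with bars of 1 standard error. MEL1 lies at -0.996 or below in all 4 comparisons, and AGO18 at 0.66 or above.

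MEL1, the germ-cell Argonaute that rice needs for meiosis and that binds phased siRNAs, was lower in tap in all 4 comparisons of genotype. At 3 mm and high temperature it had 53.8, 55.7 and 51.4 CPM in tap, against 136, 112 and 121 CPM in WT. The shorter, 2 mm inflorescences at high temperature held 21.4, 26.6 and 18.3 CPM in tap, against 48.1, 44.9 and 52.5 CPM in WT. Every tap library lay below every WT library of its length and temperature. At low temperature MEL1 had 94.7, 115 and 89.1 CPM in tap, against 219, 217 and 159.7 CPM in WT at 3 mm. The 2 mm libraries at low temperature had 28.2, 42.4 and 38.6 CPM in tap, against 93.96, 99.2 and 76.3 CPM in WT. Again the genotypes did not overlap, and within each genotype the 3 mm libraries were the higher ones.

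The log2 differences of MEL1, tap minus WT, were -1.20 ± 0.15, adjusted p = 5.62e-07 at 3 mm and -1.13 ± 0.15, adjusted p = 2.92e-06 at 2 mm under high temperature. Under low temperature they were -0.996 ± 0.14, adjusted p = 2.65e-05 at 3 mm and -1.30 ± 0.15, adjusted p = 6.57e-07 at 2 mm. These are levels 2.29-fold, 2.19-fold, 1.99-fold and 2.47-fold lower in tap. All 4 calls held whichever library was left out. MEL1 and RDR2 were the 2 members lower in tap in all 4 comparisons, a pattern at 0.82% of all tested loci.

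AGO18, a grass Argonaute known from antiviral defence in rice and from the panicle, differed in the other direction. At 3 mm and high temperature it had 28.6, 22.4 and 28.2 CPM in tap, against 13.6, 16.02 and 12.5 CPM in WT. The 2 mm libraries at high temperature had 26.8, 20.6 and 20.6 CPM in tap, against 14.01, 16.8 and 12.02 CPM in WT. All tap libraries exceeded all WT libraries. At low temperature the values were 15.9, 19.4 and 20.7 CPM in tap, against 10.4, 13.7 and 9.84 CPM in WT at 3 mm, and 18.7, 17.1 and 17.2 CPM in tap, against 11.4, 10.04 and 9.82 CPM in WT at 2 mm. Groups were separate here too.

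The log2 differences of AGO18, tap minus WT, were 0.91 ± 0.15, adjusted p = 1.15e-05 at 3 mm and 0.66 ± 0.15, adjusted p = 0.000635 at 2 mm under high temperature. The low-temperature differences were 0.72 ± 0.15, adjusted p = 0.00105 at 3 mm and 0.76 ± 0.15, adjusted p = 0.00049 at 2 mm. All 4 calls held with any 1 library left out. The other member higher in tap in all 4 comparisons was the Argonaute locus LOC_Os04g52540, and 1.34% of all loci had that pattern.

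DCL3b, the Dicer that cuts a class of phased siRNAs in rice panicles, was lower in tap at high temperature. At 3 mm it had 12.1, 6.63 and 9.32 CPM in tap, against 21.3, 17.1 and 18.95 CPM in WT. At 2 mm there were 10.5, 10.2 and 7.20 CPM in tap, against 17.1, 13.4 and 14.3 CPM in WT. The highest tap library was below the lowest WT library at both lengths. The log2 differences were -1.03 ± 0.15, adjusted p = 3.94e-06 at 3 mm and -0.68 ± 0.15, adjusted p = 0.000863 at 2 mm, and both held with any 1 library left out.

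At low temperature DCL3b was nearly level between genotypes, with 21.8, 21.8 and 22.8 CPM in tap, against 24.2, 23.2 and 23.4 CPM in WT at 3 mm. The 2 mm libraries had 19.03, 20.4 and 20.5 CPM in tap, against 20.5, 24.02 and 20.8 CPM in WT. All tap libraries lay below all WT libraries at 3 mm, by a small gap, and the genotypes just overlapped at 2 mm. The differences of -0.10 ± 0.14, adjusted p = 0.744 at 3 mm and -0.12 ± 0.14, adjusted p = 0.636 at 2 mm were not called. The 2 most negative log2 differences of the set at 3 mm and high temperature were those of MEL1 and DCL3b.

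**Figure D2:**
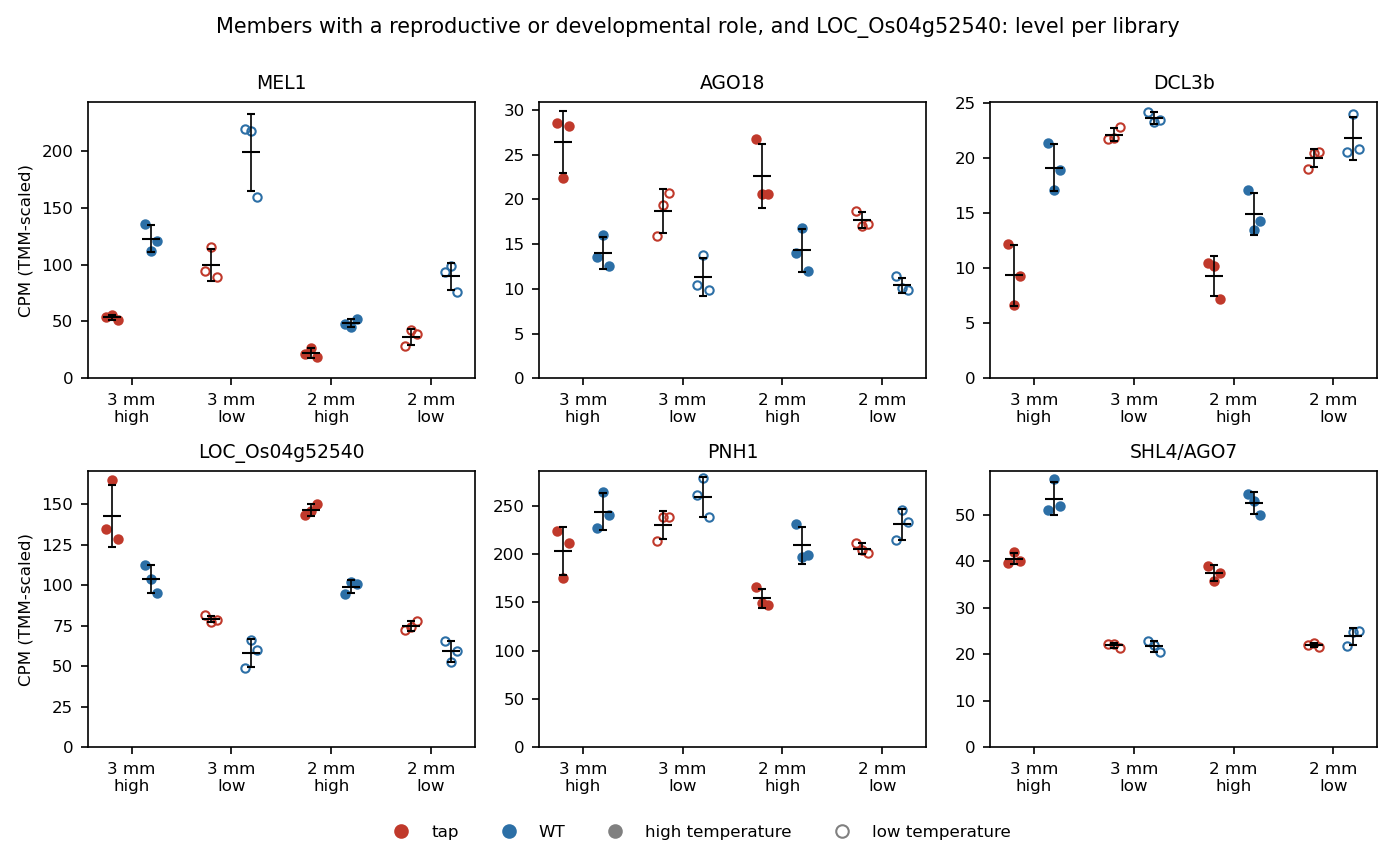
Level (y axis, TMM-scaled CPM) of MEL1, AGO18, DCL3b, LOC_Os04g52540, PNH1 and SHL4/AGO7 in each library, by length and temperature (x axis), with tap in red left of WT in blue. Filled points are high temperature and open points low temperature, and black marks give the mean ± SD of 3 libraries. MEL1 in tap at 3 mm and high temperature lies between 51.4 and 55.7 CPM, below all 3 WT libraries.

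PNH1, a rice Argonaute related to Arabidopsis PINHEAD/ZWILLE, which acts in shoot meristems, was lower in tap at high temperature. At 3 mm it had 224, 176 and 211 CPM in tap, against 227, 265 and 240.4 CPM in WT, and at 2 mm 166, 149.8 and 148 CPM in tap, against 231, 197 and 199 CPM in WT. The genotypes were separate at both lengths, narrowly so at 3 mm. For PNH1 the log2 differences were -0.26 ± 0.10, adjusted p = 0.032 at 3 mm and -0.44 ± 0.10, adjusted p = 0.000658 at 2 mm. The 3 mm call was lost without tap replicate 2 (log2 difference -0.18, adjusted p = 0.175), WT replicate 2 (-0.20, adjusted p = 0.153) or WT replicate 3 (-0.27, adjusted p = 0.054), and also without the 3 low libraries (-0.18, adjusted p = 0.14).

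At low temperature PNH1 had 214, 239 and 239 CPM in tap, against 261, 279 and 238 CPM in WT at 3 mm, which overlap. At 2 mm it had 212, 204 and 201 CPM in tap, against 214, 246 and 233 CPM in WT, where tap was just below WT. Neither difference was called, at -0.17 ± 0.10, adjusted p = 0.277 and -0.17 ± 0.10, adjusted p = 0.271.

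SHL4/AGO7, the Argonaute that starts trans-acting siRNA production and is needed for the rice shoot meristem, was also lower in tap at high temperature. It had 39.7, 42.1 and 40.1 CPM in tap, against 51.1, 57.7 and 51.9 CPM in WT at 3 mm. Libraries of 2 mm had 39.1, 35.9 and 37.6 CPM in tap, against 54.6, 53.1 and 49.99 CPM in WT. Both gaps were wider than the spread within groups. The log2 differences of -0.40 ± 0.08, adjusted p = 0.000395 at 3 mm and -0.49 ± 0.08, adjusted p = 3.84e-05 at 2 mm held with any 1 library left out.

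Low-temperature levels of SHL4/AGO7 were 22.1, 22.3 and 21.3 CPM in tap, against 22.8, 21.96 and 20.4 CPM in WT at 3 mm. At 2 mm they were 22.1, 22.5 and 21.5 CPM in tap, against 21.8, 24.8 and 25.1 CPM in WT. The genotypes overlapped at both lengths, and the differences of 0.01 ± 0.09, adjusted p = 0.957 and -0.12 ± 0.09, adjusted p = 0.412 were not called.

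Among the Argonautes as a whole, 9 of 19 were lower in tap and 2 higher at high temperature at each length, 5 were not called and 3 not tested, beside 17.8% of all loci lower and 19.3% higher at 3 mm, and 18.6% and 18.4% at 2 mm. At low temperature 1 was lower at each length, while 5 were higher at 3 mm and 4 at 2 mm, beside 6.18% of all loci lower and 5.52% higher at 3 mm, and 7.3% and 7.67% at 2 mm. Besides those already named, the Argonaute loci lower at both lengths under high temperature were LOC_Os02g45070, LOC_Os04g47870, LOC_Os01g16870, LOC_Os04g06770 and LOC_Os03g57560. Some identifiers in the family are close neighbours (LOC_Os01g16850 and LOC_Os01g16870, LOC_Os03g47820 and LOC_Os03g47830, LOC_Os04g52540 and LOC_Os04g52550). If such copies share sequence, their counts may be affected, which was not tested. No strand setting is given, so reads from overlapping transcripts of the other strand cannot be told apart.

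LOC_Os01g16870 had 679, 631 and 630.2 CPM in tap, against 1051, 1159 and 1136 CPM in WT libraries of 3 mm at high temperature. At 2 mm and high temperature it had 581, 605 and 566 CPM in tap, against 1137, 982 and 985 CPM in WT. All 6 tap libraries were below all 6 WT libraries. At low temperature the order was the opposite, with 623, 647 and 676 CPM in tap, against 487, 539 and 439 CPM in WT at 3 mm. The 2 mm libraries at low temperature had 622, 543 and 589 CPM in tap, against 463, 486 and 462 CPM in WT. Here every tap library was above every WT library.

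The log2 differences of LOC_Os01g16870, tap minus WT, were -0.79 ± 0.09, adjusted p = 3.13e-08 at 3 mm and -0.82 ± 0.09, adjusted p = 1.51e-08 at 2 mm under high temperature. Under low temperature they were 0.41 ± 0.09, adjusted p = 0.00174 and 0.31 ± 0.09, adjusted p = 0.0137. The high-temperature calls and the 3 mm low-temperature call held with any 1 library left out. The 2 mm call at low temperature was lost without tap replicate 1 (log2 difference 0.27, adjusted p = 0.0875), WT replicate 1 (0.30, adjusted p = 0.0531) or WT replicate 3 (0.30, adjusted p = 0.0552).

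LOC_Os04g47870 had 748, 601 and 653 CPM in tap, against 851, 1047 and 969 CPM in WT libraries of 3 mm at high temperature. At 2 mm the values were 639.5, 649 and 545 CPM in tap, against 1288, 1265 and 1050.5 CPM in WT. Tap was lower without overlap, at -0.52 ± 0.11, adjusted p = 0.000355 at 3 mm and -0.97 ± 0.11, adjusted p = 3.04e-08 at 2 mm on the log2 scale. At low temperature it had 1108, 1153 and 1183 CPM in tap, against 905, 1039.8 and 808 CPM in WT at 3 mm, and 1239.6, 1072 and 1222 CPM in tap, against 917, 1011 and 961 CPM in WT at 2 mm. Tap libraries were the higher ones at both lengths. The low-temperature difference was called at 3 mm (0.32 ± 0.11, adjusted p = 0.0478) and not at 2 mm (0.29 ± 0.11, adjusted p = 0.0676), and the 3 mm call was lost in 5 of the 6 fits that left out 1 library, with an adjusted p of up to 0.226 without WT replicate 3, and also with RLE size factors (adjusted p = 0.0504) or no filter on low counts (adjusted p = 0.052). Those 5 libraries were tap replicates 1, 2 and 3 and WT replicates 1 and 3.

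LOC_Os04g06770 had 699.7, 669 and 654 CPM in tap, against 933, 1111 and 1069 CPM in WT libraries of 3 mm at high temperature. The 2 mm libraries had 543, 579 and 499 CPM in tap, against 986, 949 and 871 CPM in WT. The genotypes were well apart at both lengths, with log2 differences of -0.62 ± 0.09, adjusted p = 1.85e-06 and -0.79 ± 0.09, adjusted p = 3.15e-08. At low temperature it had 382, 405 and 409 CPM in tap, against 417, 431 and 364 CPM in WT at 3 mm, and 361, 338 and 345 CPM in tap, against 375, 392.3 and 363 CPM in WT at 2 mm. Neither low-temperature difference was called (-0.02 ± 0.09, adjusted p = 0.932 at 3 mm and -0.11 ± 0.09, adjusted p = 0.44 at 2 mm).

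LOC_Os03g57560 was read at a low level, with 12.0003, 4.47 and 7.92 CPM in tap, against 14.1, 11.8 and 15.03 CPM in WT libraries of 3 mm at high temperature. At 2 mm it had 10.2, 6.17 and 5.39 CPM in tap, against 12.1, 11.7 and 11.3 CPM in WT. Tap replicate 1 was the highest tap library at both lengths, and at 3 mm it overlapped WT. The log2 differences were -0.74 ± 0.22, adjusted p = 0.0107 at 3 mm and -0.68 ± 0.22, adjusted p = 0.0191 at 2 mm. At 3 mm the value was -0.47 (adjusted p = 0.0483) without tap replicate 2 and -1.12 (adjusted p = 4.96e-05) without tap replicate 1. The 2 mm call was lost without tap replicate 2 (-0.56, adjusted p = 0.0783), tap replicate 3 (-0.49, adjusted p = 0.113) or WT replicate 1 (-0.63, adjusted p = 0.054).

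At low temperature LOC_Os03g57560 had 21.3, 20.9 and 22.6 CPM in tap, against 21.6, 19.5 and 20.4 CPM in WT at 3 mm. Libraries of 2 mm had 22.5, 23.5 and 19.2 CPM in tap, against 21.05, 19.7 and 21.9 CPM in WT. The genotypes overlapped, and no difference was called (0.08 ± 0.20, adjusted p = 0.868 and 0.06 ± 0.20, adjusted p = 0.891).

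LOC_Os04g52540 was higher in tap throughout. It had 135, 165 and 129 CPM in tap, against 112, 104 and 95.2 CPM in WT libraries of 3 mm at high temperature, and 143, 146 and 150.3 CPM in tap, against 94.6, 102 and 101 CPM in WT at 2 mm. Low-temperature values were 81.4, 77.5 and 78.5 CPM in tap, against 48.6, 65.98 and 60.02 CPM in WT at 3 mm, and 72.3, 73.9 and 78.1 CPM in tap, against 65.5, 52.6 and 59.5 CPM in WT at 2 mm. In each of the 4 pairs the tap libraries lay above the WT libraries. Its log2 differences were 0.46 ± 0.10, adjusted p = 0.000685 at 3 mm and 0.56 ± 0.10, adjusted p = 6.91e-05 at 2 mm under high temperature. Under low temperature they were 0.44 ± 0.10, adjusted p = 0.00376 and 0.34 ± 0.10, adjusted p = 0.0242, of which the 3 mm call was lost without WT replicate 1 (0.33, adjusted p = 0.0579) and the 2 mm call without any of tap replicates 2 and 3 and WT replicates 2 and 3 (0.26 and adjusted p = 0.164 without WT replicate 2).

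LOC_Os02g45070 averaged 246 ± 30.04 CPM in tap, against 326 ± 34.6 CPM in WT libraries of 3 mm at high temperature, and 199 ± 36.6 CPM in tap, against 310.2 ± 49.9 CPM in WT at 2 mm (SD, n = 3 each). The log2 differences were -0.41 ± 0.13, adjusted p = 0.016 and -0.64 ± 0.13, adjusted p = 0.000381, and the 3 mm call was lost without tap replicate 2 (-0.35, adjusted p = 0.0801), tap replicate 3 (-0.39, adjusted p = 0.0525) or WT replicate 2 (-0.32, adjusted p = 0.0894). LOC_Os02g58490 was called at 2 mm and high temperature (-0.43 ± 0.13, adjusted p = 0.0118) with overlapping libraries, and the call was lost without tap replicate 3 (-0.29, adjusted p = 0.124), WT replicate 1 (-0.36, adjusted p = 0.0644) or WT replicate 2 (-0.32, adjusted p = 0.0892). LOC_Os07g16224 was lower in tap at 3 mm and high temperature (-0.33 ± 0.10, adjusted p = 0.00904), with 41.2 ± 4.72 CPM in tap, against 51.9 ± 3.13 CPM in WT. LOC_Os02g07310 was higher in tap at low temperature, by 0.37 ± 0.10, adjusted p = 0.0105 at 3 mm and 0.30 ± 0.10, adjusted p = 0.036 at 2 mm. The 3 mm call was lost without tap replicate 3 (0.33, adjusted p = 0.0613) or WT replicate 1 (0.35, adjusted p = 0.0533), and the 2 mm call without any library except tap replicate 3 (adjusted p of up to 0.143).

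The other Argonautes gave no call between genotypes. LOC_Os06g51310 had adjusted p-values of 0.455 and 0.289 at high temperature and 0.577 and 0.802 at low temperature. LOC_Os04g52550 stood at only 0.466 to 1.83 CPM per library over all 24, and its adjusted p-values ran between 0.264 and 0.709. LOC_Os01g16850 had 5, 3 and 4 counts in tap and 0, 0 and 2 counts in WT at 3 mm and high temperature, and 10, 7 and 11 counts in tap and 18, 10 and 15 counts in WT at 3 mm and low temperature. At 2 mm it had 3, 0 and 3 counts in tap and 2, 1 and 0 counts in WT under high temperature, and 9, 11 and 3 in tap and 10, 5 and 9 in WT under low temperature. Differences in so few counts were not read as folds.

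Of the 6 Dicers, 2 were lower and 2 higher in tap at high temperature at each length. Of all loci, 17.8% were lower and 19.3% higher at 3 mm, and 18.6% and 18.4% at 2 mm. At low temperature the Dicers' adjusted p-values were all between 0.142 and 0.922. DCL1, which cuts microRNA precursors, averaged 83.5 ± 24.4 CPM in tap, against 126 ± 7.74 CPM in WT libraries of 3 mm at high temperature, and 70.6 ± 13.8 CPM in tap, against 113 ± 14.6 CPM in WT at 2 mm (SD, n = 3 each). Its log2 differences were -0.59 ± 0.15, adjusted p = 0.0038 at 3 mm and -0.68 ± 0.15, adjusted p = 0.00127 at 2 mm. In both tap groups the library low for most members was the lowest for DCL1 too, with 56.2 CPM in replicate 2 at 3 mm and 55.7 CPM in replicate 3 at 2 mm, and both calls held without either. Without that replicate 2 the 3 mm difference was -0.39 (adjusted p = 0.0146). DCL1 and DCL3b were the 2 Dicers lower in tap.

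The 2 Dicers higher in tap were DCL2a and DCL2b, relatives of the Arabidopsis Dicer that acts against viruses. DCL2b had 10.3, 9.39 and 10.2 CPM in tap, against 8.17, 4.89 and 7.75 CPM in WT libraries of 3 mm at high temperature, and 14.6, 11.3 and 11.5 CPM in tap, against 6.80, 8.34 and 10.7 CPM in WT at 2 mm. Tap was above WT in every library. Differences on the log2 scale of 0.52 ± 0.17, adjusted p = 0.0167 and 0.53 ± 0.17, adjusted p = 0.0116 were lost at 3 mm without WT replicate 2 (0.32, adjusted p = 0.146), and at 2 mm without tap replicate 1 (0.40, adjusted p = 0.092) or WT replicate 1 (0.41, adjusted p = 0.0672). At low temperature DCL2b had 17.6, 15.7 and 17.4 CPM in tap, against 11.97, 12.6 and 14.9 CPM in WT at 3 mm, without overlap, and 16.1, 17.8 and 16.02 CPM in tap, against 17.8, 13.6 and 14.3 CPM in WT at 2 mm, with overlap.

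DCL2a averaged 40.2 ± 7.72 CPM in tap, against 29.4 ± 3.26 CPM in WT libraries of 3 mm at high temperature, and 40.5 ± 6.16 CPM in tap, against 30.04 ± 1.52 CPM in WT at 2 mm (SD, n = 3 each). Its log2 differences of 0.45 ± 0.12, adjusted p = 0.00296 and 0.43 ± 0.12, adjusted p = 0.00429 held with any 1 library left out. DCL3a, which makes repeat-derived siRNAs, differed between genotypes by -0.07 ± 0.11 at 3 mm and -0.09 ± 0.11 at 2 mm under high temperature (adjusted p = 0.684 and 0.559). DCL4, which cuts trans-acting and phased siRNAs, differed by -0.11 ± 0.13 and -0.30 ± 0.13 (adjusted p = 0.51 and 0.0633).

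RDR2, the polymerase that supplies DCL3a in the repeat-siRNA pathway, was lower in tap at every length and temperature. It averaged 103 ± 8.58 CPM in tap, against 140.4 ± 5.50 CPM in WT libraries of 3 mm at high temperature, and 86.97 ± 5.20 CPM in tap, against 123 ± 8.02 CPM in WT at 2 mm. At low temperature it averaged 63.5 ± 3.59 CPM in tap, against 85.8 ± 1.82 CPM in WT at 3 mm, and 59.6 ± 1.90 CPM in tap, against 83.4 ± 3.36 CPM in WT at 2 mm (SD, n = 3 each). No tap library reached its WT group in any of the 4 pairs. The log2 differences were -0.44 ± 0.08, adjusted p = 7.71e-05 and -0.50 ± 0.08, adjusted p = 1.54e-05 at high temperature, and -0.43 ± 0.08, adjusted p = 0.000412 and -0.49 ± 0.08, adjusted p = 8.23e-05 at low temperature, at 3 mm and 2 mm in turn, and all 4 calls held with any 1 library left out.

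RDR1, a polymerase known from antiviral defence, was higher in tap at low temperature. There it averaged 105 ± 5.80 CPM in tap, against 69.2 ± 3.64 CPM in WT at 3 mm, and 104 ± 7.53 CPM in tap, against 71.7 ± 5.22 CPM in WT at 2 mm (SD, n = 3 each). Differences on the log2 scale of 0.60 ± 0.12, adjusted p = 0.000502 and 0.54 ± 0.12, adjusted p = 0.0013 held with any 1 library left out. At high temperature the genotypes overlapped, and the differences of 0.19 ± 0.12, adjusted p = 0.204 at 3 mm and -0.12 ± 0.12, adjusted p = 0.458 at 2 mm were not called. Without the 3 low libraries the 3 mm difference was called (0.32, adjusted p = 0.0121).

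RDR6 makes the double strands for trans-acting and phased siRNAs. It was lower in tap at 3 mm and high temperature (-0.22 ± 0.08, adjusted p = 0.0331) and at 2 mm and low temperature (-0.25 ± 0.09, adjusted p = 0.0414). Both differences were small and fragile. At 3 mm the call was lost without tap replicate 3 (-0.17, adjusted p = 0.158) or any WT replicate, and at 2 mm without any of 5 libraries (adjusted p of up to 0.151, without WT replicate 2), namely tap replicates 1 and 2 and all 3 WT replicates.

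Its partner SGS3 averaged 365 ± 61.4 CPM in tap, against 469 ± 48.4 CPM in WT libraries of 3 mm at high temperature, and 305 ± 18.5 CPM in tap, against 441 ± 75.5 CPM in WT at 2 mm (SD, n = 3 each). Log2 differences of SGS3 were -0.36 ± 0.11, adjusted p = 0.011 and -0.53 ± 0.11, adjusted p = 0.000372. The 3 mm call was lost without tap replicate 2 (-0.25, adjusted p = 0.0849), WT replicate 2 (-0.27, adjusted p = 0.0811) or the 3 low libraries (-0.25, adjusted p = 0.065). WAF1/HEN1, the small RNA methyltransferase, was called at 2 mm and high temperature (-0.22 ± 0.09, adjusted p = 0.0432) and lost without any library except tap replicate 1. Without tap replicate 3 its difference was -0.14 (adjusted p = 0.321).

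By pathway, the trans-acting siRNA genes (SHL4/AGO7, DCL4, RDR6 and SGS3) had at high temperature 3 of 4 lower in tap at 3 mm, beside 17.8% of all loci, and 2 of 4 at 2 mm, beside 18.6%. Of the 3 calls at 3 mm, those of RDR6 and SGS3 are among the calls lost with 1 library left out. At low temperature 1 of the 4, RDR6, was lower at 2 mm, beside 7.3% of all loci, and at 3 mm adjusted p-values ran between 0.169 and 0.957. The genes tied to reproductive phased siRNAs (MEL1, AGO18, DCL3b, DCL4 and RDR6) had 3 of 5 lower and 1 higher at 3 mm and high temperature, where 37.1% of all loci were called. There the call of RDR6 was lost without any of 4 libraries. At 2 mm and high temperature 2 were lower and 1 higher, beside 37% of all loci called. At low temperature 1 was lower and 1 higher at 3 mm, beside 11.7%, and 2 were lower, RDR6 among them, and 1 higher at 2 mm, beside 15%. Of the repeat-siRNA pair, RDR2 was lower in all 4 comparisons and DCL3a was not called.

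Whether tap differed from WT by another amount at high than at low temperature was tested with an interaction, the log2 difference at high temperature minus that at low temperature. At 3 mm 7 of 27 members had a negative interaction and 1 a positive one, 29.6% against 26.4% of all loci. At 2 mm 10 were negative, 37% against 26.8% of all loci. Negative calls made up 12% of all loci at 3 mm and 13.6% at 2 mm, and positive calls 14.3% at 3 mm. The members' medians were -0.33 at 3 mm and -0.35 at 2 mm, against 0.0035 over all loci at 3 mm and -0.0024 at 2 mm. Without the 3 low libraries 6 were negative and 1 positive at 3 mm (25.9%, against 21.2% of all loci), and 10 were negative and 1 positive at 2 mm (40.7%, against 26%). The positive one was then DCL2a at both lengths, with 0.41 (adjusted p = 0.0337) at 3 mm and 0.56 (adjusted p = 0.00218) at 2 mm, against 0.34 ± 0.17, adjusted p = 0.125 and 0.40 ± 0.16, adjusted p = 0.0681 with all libraries, and LOC_Os01g16850 was lost (adjusted p = 0.0872).

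At both lengths the interaction was negative for 6 members, LOC_Os02g45070, LOC_Os04g47870, LOC_Os01g16870, LOC_Os04g06770, SHL4/AGO7 and DCL3b, a pattern at 7.66% of all loci. LOC_Os01g16870 had -1.20 ± 0.13, adjusted p = 3.4e-08 at 3 mm and -1.14 ± 0.13, adjusted p = 6.88e-08 at 2 mm, with tap below WT at high temperature and above it at low temperature at both lengths. LOC_Os04g47870 had -0.84 ± 0.15, adjusted p = 0.000142 at 3 mm and -1.27 ± 0.15, adjusted p = 3.37e-07 at 2 mm. LOC_Os04g06770 had -0.60 ± 0.12, adjusted p = 0.000597 and -0.68 ± 0.12, adjusted p = 0.00016. LOC_Os02g45070 had -0.66 ± 0.19, adjusted p = 0.00976 and -0.81 ± 0.19, adjusted p = 0.00191. These 4 Argonaute loci kept the call with any 1 library left out at either length.

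For DCL3b the interaction was -0.93 ± 0.21, adjusted p = 0.00138 at 3 mm, where any 1 library could be left out, and -0.56 ± 0.21, adjusted p = 0.0483 at 2 mm. The 2 mm call was lost without any of 8 of the 12 libraries, with a value of -0.37 and an adjusted p of 0.197 without tap replicate 3 at high temperature, and also without the 3 low libraries (adjusted p = 0.116). SHL4/AGO7 had -0.41 ± 0.12, adjusted p = 0.0125 at 3 mm, which held, and -0.37 ± 0.12, adjusted p = 0.0241 at 2 mm, which was lost without any of 6 libraries (adjusted p of up to 0.0975, without WT replicate 1 at high temperature). LOC_Os03g57560 had -0.81 ± 0.30, adjusted p = 0.0471 at 3 mm, lost in 10 of 12 such fits and without the 3 low libraries (-0.53, adjusted p = 0.0883).

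At 2 mm 4 further members had a negative interaction. RDR1 had -0.66 ± 0.16, adjusted p = 0.00326, which held with any 1 library left out. LOC_Os02g58490 had -0.55 ± 0.19, adjusted p = 0.0287, DCL4 -0.47 ± 0.18, adjusted p = 0.0477 and SGS3 -0.45 ± 0.16, adjusted p = 0.033, and each of these was lost without any of 7 or more of the 12 libraries. SGS3 moved furthest without WT replicate 1 at high temperature (-0.26, adjusted p = 0.207). With no filter on low counts the 2 mm interactions of SHL4/AGO7, DCL3b, DCL4 and SGS3 were lost as well (adjusted p of 0.0506 to 0.0599). MEL1, AGO18 and RDR2, which differed between genotypes at both temperatures, had interactions of -0.20 ± 0.20, 0.19 ± 0.21 and -0.01 ± 0.12 at 3 mm and 0.17 ± 0.21, -0.10 ± 0.21 and -0.02 ± 0.12 at 2 mm, none of them called (adjusted p of 0.505 to 0.991). The 1 positive interaction, of LOC_Os01g16850 at 3 mm, rests on the few counts given above and was lost in 10 of 12 fits that left out 1 library.

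High temperature was set against low temperature within each genotype and length. Most loci of the table were called, and the members' counts are given beside that background. In tap 13 members were higher and 8 lower at 3 mm, 77.8% against 68.6% of all loci, and 10 were higher and 10 lower at 2 mm, 74.1% against 69%. In WT 14 were higher and 5 lower at 3 mm, 70.4% against 65.8%, and 17 were higher and 7 lower at 2 mm, 88.9% against 63.8%. Higher calls made up 32.9% of all loci in tap at 3 mm, 32.5% in tap at 2 mm, 30.8% in WT at 3 mm and 29.8% in WT at 2 mm, and lower calls 35.7%, 36.5%, 35% and 34.1% in the same order. The members' median log2 differences, high minus low, were 0.09 at 3 mm and 0.08 at 2 mm in tap, and 0.59 and 0.48 in WT, where the median of all loci lay between -0.055 and -0.042 in the 4 comparisons.

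The table lists loci by their low-temperature counts, and the columns of the temperatures are named in different styles, so temperature cannot be told apart from separate handling of the 2 sets of libraries. With library totals alone in place of TMM, the median of all loci moved to between -0.22 and -0.17. Without the 3 low libraries 13 members were higher and 7 lower in tap at 3 mm (74.1%, against 66.3% of all loci), 13 and 8 in tap at 2 mm (77.8%, against 66.5%), 14 and 6 in WT at 3 mm (74.1%, against 63%), and 17 and 7 in WT at 2 mm (88.9%, against 65.8%).

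**Figure D3:**
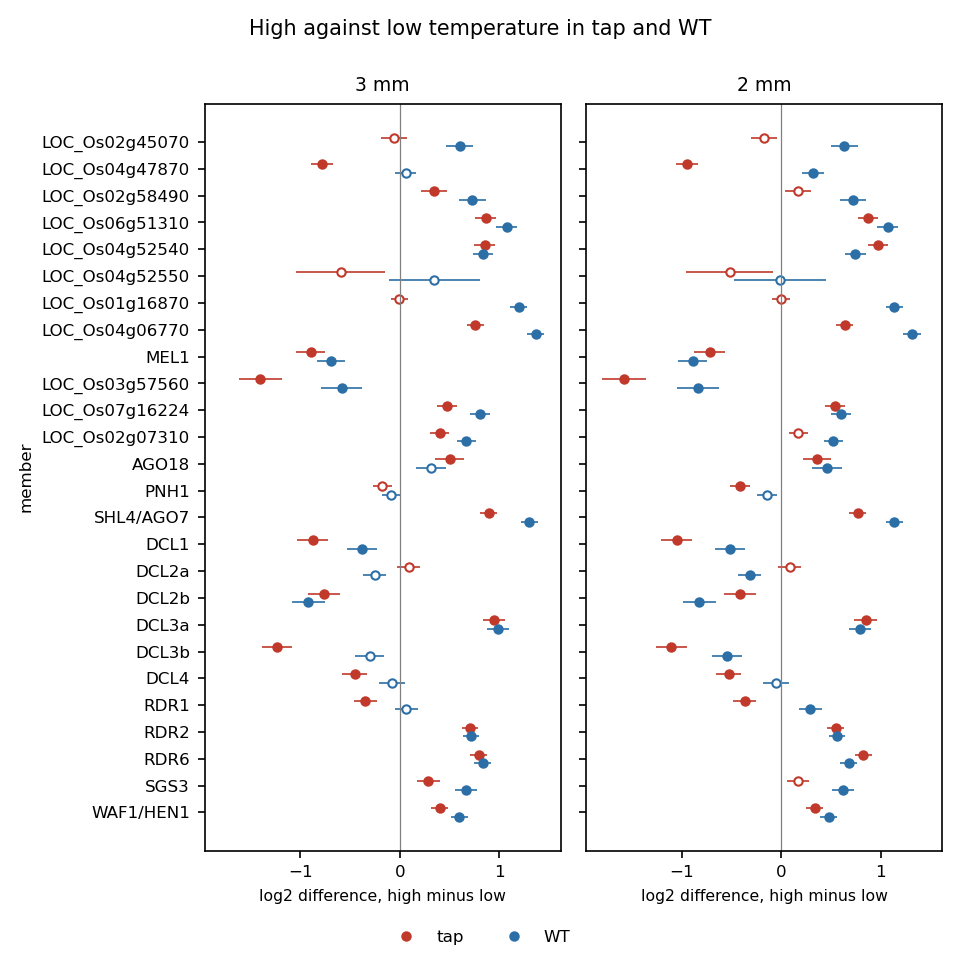
Log2 difference between high and low temperature (x axis, high minus low) for 26 tested members (y axis) at 3 mm (left) and 2 mm (right), with LOC_Os01g16850 left out for its low counts. Red points are tap and blue points WT, filled where called at an adjusted p under 0.05, with bars of 1 standard error. LOC_Os01g16870 lies near 0 in tap and at 1.19 and 1.14 in WT.

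At high temperature 9 members were higher in both genotypes at both lengths, a pattern at 18.6% of all loci. They were the Argonautes LOC_Os06g51310, LOC_Os04g52540, LOC_Os04g06770, LOC_Os07g16224 and SHL4/AGO7 and also DCL3a, RDR2, RDR6 and WAF1/HEN1. Another 4 members, MEL1, LOC_Os03g57560, DCL1 and DCL2b, were lower in all 4, as were 22.6% of all loci. With library totals alone in place of TMM no direction among these 13 changed and no call was lost. The rises of WAF1/HEN1 were then 0.21 in tap and 0.31 in WT at 2 mm and 0.23 in tap at 3 mm, against 0.34, 0.48 and 0.40 with TMM.

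LOC_Os04g06770 rose in tap by 0.76 ± 0.09, adjusted p = 1.03e-08 at 3 mm and 0.64 ± 0.09, adjusted p = 2.64e-07 at 2 mm on the log2 scale. Its rises in WT were 1.36 ± 0.09, adjusted p = 5.28e-14 at 3 mm and 1.31 ± 0.09, adjusted p = 1.25e-13 at 2 mm, the largest there among members of at least 1 CPM. In tap the largest rises were those of DCL3a at 3 mm and of LOC_Os04g52540 at 2 mm. DCL3a had 192, 129 and 157 CPM at high and 80.8, 83.4 and 84.3 CPM at low temperature in tap at 3 mm, and 166, 175 and 159.8 CPM at high and 83.6, 97.8 and 71.7 CPM at low temperature in WT. DCL3a at 2 mm had 139, 139 and 132 CPM at high and 80.6, 65.9 and 81.4 CPM at low temperature in tap, and 156, 149.5 and 131 CPM at high and 80.3, 86.4 and 86.04 CPM at low temperature in WT. Every high-temperature library of DCL3a exceeded every low-temperature one.

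The log2 differences of DCL3a were 0.94 ± 0.11, adjusted p = 1.85e-08 at 3 mm and 0.85 ± 0.11, adjusted p = 1.4e-07 at 2 mm in tap, and 0.98 ± 0.11, adjusted p = 8.79e-09 and 0.79 ± 0.11, adjusted p = 5.16e-07 in WT. LOC_Os04g52540 rose by 0.85 ± 0.10, adjusted p = 1.82e-08 and 0.97 ± 0.10, adjusted p = 1.5e-09 in tap, and by 0.84 ± 0.10, adjusted p = 3.24e-08 and 0.74 ± 0.10, adjusted p = 2.82e-07 in WT. SHL4/AGO7 rose by 0.89 ± 0.09, adjusted p = 2.39e-10 and 0.77 ± 0.09, adjusted p = 4.76e-09 in tap, and by 1.30 ± 0.09, adjusted p = 6.39e-14 and 1.14 ± 0.09, adjusted p = 1.19e-12 in WT. LOC_Os06g51310 rose by 0.86 ± 0.10 and 0.87 ± 0.10 in tap and by 1.07 ± 0.10 and 1.07 ± 0.10 in WT. These pairs give 3 mm and then 2 mm.

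**Figure D4:**
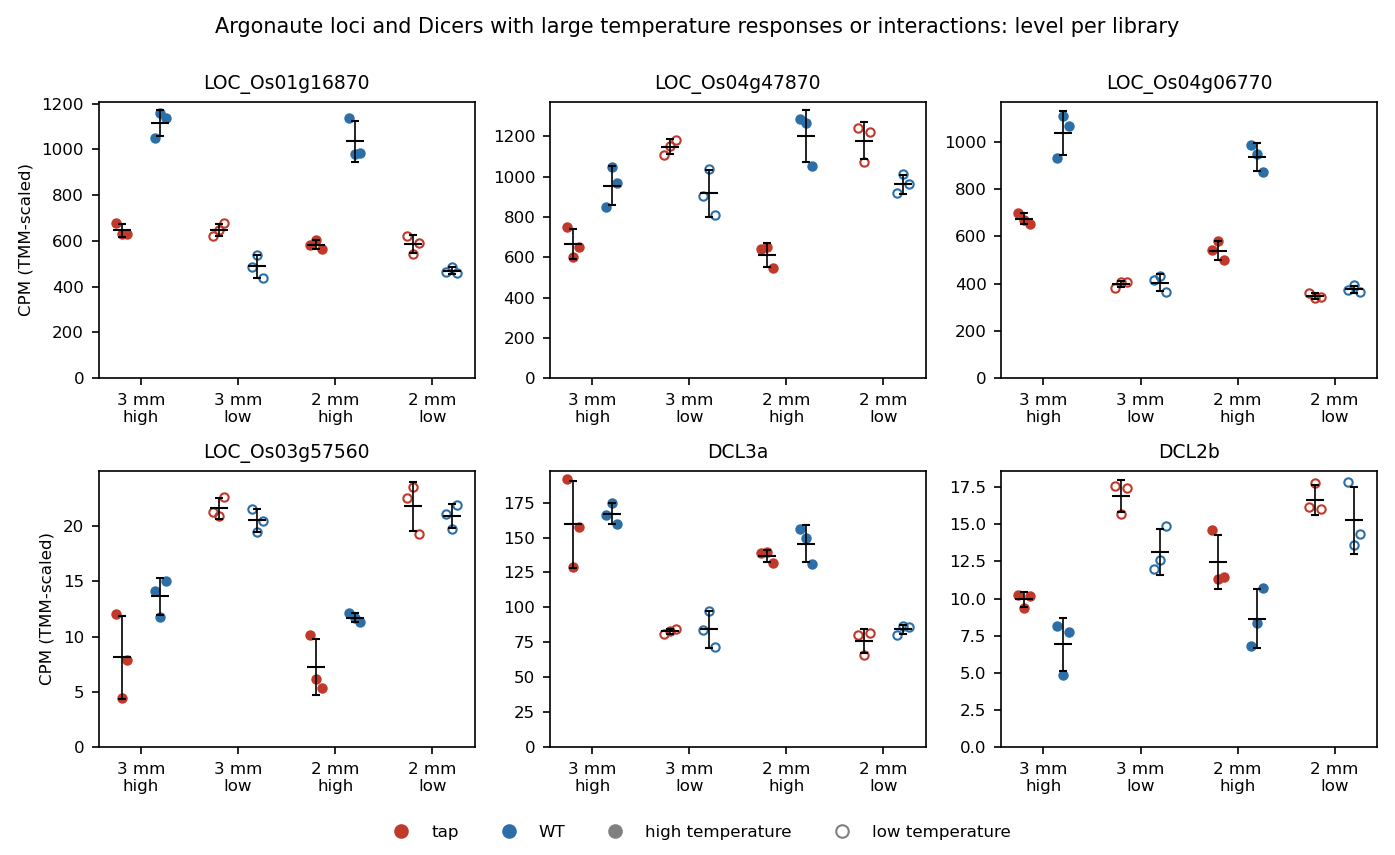
Level (y axis, TMM-scaled CPM) of LOC_Os01g16870, LOC_Os04g47870, LOC_Os04g06770, LOC_Os03g57560, DCL3a and DCL2b in each library, by length and temperature (x axis), with tap in red left of WT in blue. Filled points are high temperature and open points low temperature, and black marks give the mean ± SD of 3 libraries. The WT libraries of LOC_Os01g16870 lie between 982 and 1159 CPM at high and between 439 and 539 CPM at low temperature.

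Among the members that were lower at high temperature, LOC_Os03g57560 had the largest falls in tap of those with at least 1 CPM, with log2 differences of -1.40 ± 0.22, adjusted p = 4.45e-06 at 3 mm and -1.58 ± 0.22, adjusted p = 9.13e-07 at 2 mm. Its WT differences were -0.59 ± 0.21, adjusted p = 0.0166 and -0.84 ± 0.21, adjusted p = 0.0013, and the 3 mm call there was lost without WT replicate 2 at high temperature (-0.49, adjusted p = 0.0768). DCL3b was lower in tap, at -1.23 ± 0.15, adjusted p = 2.63e-08 at 3 mm and -1.10 ± 0.15, adjusted p = 2.13e-07 at 2 mm, and in WT at -0.55 ± 0.15, adjusted p = 0.00177 at 2 mm, while its difference of -0.30 ± 0.14 at 3 mm in WT was not called (adjusted p = 0.0643). DCL1 was lower, at -0.88 ± 0.15, adjusted p = 2.08e-05 and -1.05 ± 0.15, adjusted p = 1.93e-06 in tap, and at -0.38 ± 0.15, adjusted p = 0.0308 and -0.52 ± 0.15, adjusted p = 0.00474 in WT at 3 mm and 2 mm. Its 3 mm call in WT was lost without any of 4 libraries, with -0.33 and an adjusted p of 0.106 without WT replicate 2 at high temperature.

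In WT the largest falls among members of at least 1 CPM were those of DCL2b at 3 mm and MEL1 at 2 mm. LOC_Os01g16850, with the few counts given above, was also called lower in WT at both lengths (adjusted p = 8.98e-05 at 3 mm and 0.00627 at 2 mm) and in tap at 2 mm (adjusted p = 0.0393). Loci without counts were more frequent at high temperature over the whole table, as given above. DCL2b was lower, at -0.76 ± 0.16, adjusted p = 0.000122 at 3 mm and -0.42 ± 0.16, adjusted p = 0.0212 at 2 mm in tap, and at -0.92 ± 0.17, adjusted p = 1.8e-05 and -0.82 ± 0.16, adjusted p = 6.18e-05 in WT. Its 2 mm call in tap was lost without tap replicate 2 (-0.32, adjusted p = 0.108) or tap replicate 3 (-0.33, adjusted p = 0.0991) at high temperature, tap replicate 2 at low temperature (-0.36, adjusted p = 0.0764), or the 3 low libraries (-0.33, adjusted p = 0.0899). MEL1 was lower, at -0.89 ± 0.15, adjusted p = 7.94e-06 and -0.72 ± 0.15, adjusted p = 0.000225 in tap, and at -0.69 ± 0.14, adjusted p = 0.000165 and -0.89 ± 0.15, adjusted p = 1.03e-05 in WT, at 3 mm and 2 mm. All 4 falls of MEL1 held with any 1 library left out.

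For several members the response was called in 1 genotype and not in the other, which the interactions test. LOC_Os01g16870 had differences in tap of -0.01 ± 0.09, adjusted p = 0.959 at 3 mm and -0.00 ± 0.09, adjusted p = 0.988 at 2 mm, while in WT it was higher at high temperature by 1.19 ± 0.09, adjusted p = 9.37e-13 and 1.14 ± 0.09, adjusted p = 2.84e-12. LOC_Os02g45070 had differences of -0.06 ± 0.13 and -0.18 ± 0.13 in tap, and was higher in WT by 0.60 ± 0.13 and 0.63 ± 0.13. LOC_Os04g47870 was lower at high temperature in tap, at -0.78 ± 0.11, adjusted p = 2.34e-07 and -0.95 ± 0.11, adjusted p = 7.28e-09, where in WT it differed by 0.06 ± 0.11 at 3 mm (adjusted p = 0.649) and was higher by 0.32 ± 0.11 at 2 mm (adjusted p = 0.0111). The 2 mm call in WT was lost with library totals alone (0.15, adjusted p = 0.222) and without WT replicate 1 (0.26, adjusted p = 0.063) or WT replicate 2 (0.27, adjusted p = 0.0554) at high temperature.

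DCL4 was lower at high temperature in tap, at -0.46 ± 0.13, adjusted p = 0.00223 at 3 mm and -0.53 ± 0.13, adjusted p = 0.000562 at 2 mm, and differed in WT by -0.08 ± 0.13 and -0.05 ± 0.13 (adjusted p = 0.59 and 0.729). Its 3 mm value in tap was -0.29 (adjusted p = 0.0204) without tap replicate 2 at high temperature, and its 3 mm interaction of -0.37 ± 0.18, adjusted p = 0.122 was not called. RDR1 was lower in tap, at -0.35 ± 0.12, adjusted p = 0.00866 and -0.37 ± 0.12, adjusted p = 0.00589, calls that were lost without tap replicate 2 at 3 mm (-0.22, adjusted p = 0.0742) and tap replicate 3 at 2 mm (-0.25, adjusted p = 0.0731). In WT RDR1 was higher at 2 mm by 0.29 ± 0.12, adjusted p = 0.0299, a call lost with library totals alone (0.12, adjusted p = 0.41) and without WT replicate 1 or 2 at high temperature or WT replicate 2 or 3 at low temperature (adjusted p of up to 0.11). RDR2 rose by 0.70 ± 0.08 and 0.55 ± 0.08 in tap and by 0.71 ± 0.08 and 0.56 ± 0.08 in WT, and RDR6 by 0.79 ± 0.08 and 0.82 ± 0.09 in tap and by 0.83 ± 0.08 and 0.68 ± 0.08 in WT. AGO18 was higher at high temperature in tap by 0.50 ± 0.14, adjusted p = 0.00278 at 3 mm and 0.36 ± 0.14, adjusted p = 0.0278 at 2 mm. In WT it was higher by 0.46 ± 0.15, adjusted p = 0.00924 at 2 mm, and both 2 mm calls were lost with library totals alone (0.23, adjusted p = 0.156 in tap and 0.29, adjusted p = 0.103 in WT). The tap call was also lost without tap replicate 1 at high temperature (0.22, adjusted p = 0.213) or tap replicate 2 or 3 at low temperature, and the WT call without WT replicate 2 at high temperature (0.32, adjusted p = 0.0908).

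The 3 mm inflorescences were set against the 2 mm ones within genotype and temperature. MEL1 was higher at 3 mm in all 4 comparisons, as were 8 of the 23658 tested loci (0.0338%). From the library values above, no 2 mm library of MEL1 reached the 3 mm group of its genotype and temperature. The log2 differences, 3 mm minus 2 mm, were 1.28 ± 0.15, adjusted p = 8.17e-05 in tap and 1.34 ± 0.15, adjusted p = 2.85e-06 in WT at high temperature. At low temperature they were 1.45 ± 0.15, adjusted p = 7.59e-06 in tap and 1.15 ± 0.15, adjusted p = 0.000385 in WT. These are levels 2.42-fold, 2.54-fold, 2.74-fold and 2.21-fold higher at 3 mm, and all 4 calls held with any 1 library left out. The difference between genotypes in this step, tap minus WT, was -0.07 ± 0.21, adjusted p = 0.959 at high temperature and 0.31 ± 0.21, adjusted p = 1 at low temperature.

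Apart from MEL1, few members differed between lengths. In tap at high temperature 3 of 27 were higher at 3 mm, 11.1% against 2.21% of all loci, and in WT 2, 7.41% against 6.37%. Higher calls alone made up 1.44% of all loci in tap and 2.65% in WT. At low temperature MEL1 was the 1 member called in each genotype, 3.7% of the tested members, against 1.33% of all loci in tap and 0.368% in WT, of which the higher ones were 0.558% and 0.22%. The members' median differences were 0.18 in tap and 0.15 in WT at high temperature and 0.09 in tap and 0.04 in WT at low temperature. PNH1 was higher at 3 mm in tap at high temperature by 0.40 ± 0.10, adjusted p = 0.0262, a call lost without tap replicate 2 (0.34, adjusted p = 0.0592) or tap replicate 3 (0.34, adjusted p = 0.167) at 2 mm, or tap replicate 1 (0.30, adjusted p = 0.232) or tap replicate 3 (0.37, adjusted p = 0.105) at 3 mm. LOC_Os04g06770 was higher there by 0.32 ± 0.09, adjusted p = 0.0491, which was lost without any library except tap replicate 2 at 2 mm. RDR6 was higher at 3 mm in WT at high temperature by 0.28 ± 0.08, adjusted p = 0.0368, which was lost without any 1 of the 6 libraries.

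Without the 3 low libraries 3 members were called in tap (11.1%, against 4.16% of all loci) and 5 in WT (18.5%, against 9.2%) at high temperature. Those in tap were all higher at 3 mm, and of those in WT 3 were higher and 2 lower. At low temperature 2 were called in each genotype (7.41%, against 1.69% of all loci in tap and 0.622% in WT). LOC_Os06g51310 was among those added in 3 of these 4 comparisons, with 0.27 (adjusted p = 0.0458) in WT at high temperature, 0.33 (adjusted p = 0.0396) in tap and 0.39 (adjusted p = 0.0477) in WT at low temperature. The difference between genotypes in the step of length was called by edgeR for 0 of 27 members at either temperature, against 1.27% of all loci at high temperature and 0% at low temperature. At an unadjusted p under 0.05 it was 1 member at high temperature, LOC_Os04g47870, and 0 at low temperature, and no other tool was run on it.

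**Figure D5:**
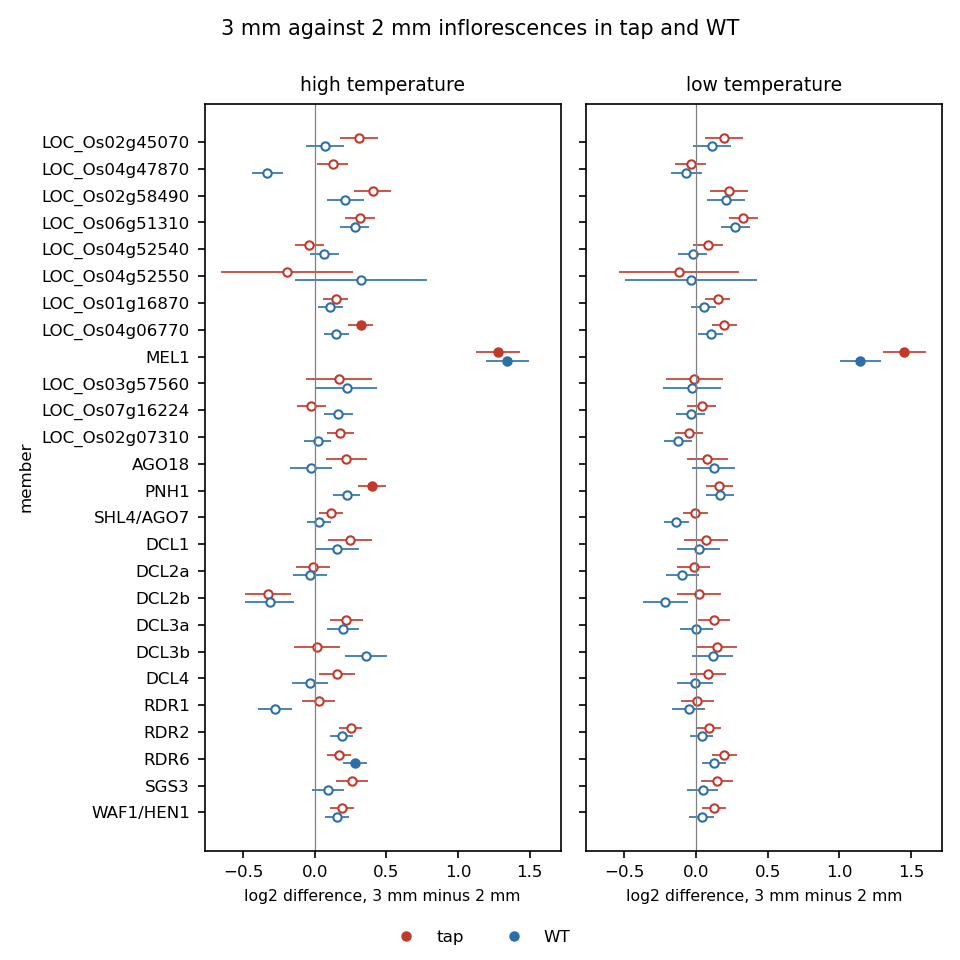
Log2 difference between 3 mm and 2 mm inflorescences (x axis, 3 mm minus 2 mm) for 26 tested members (y axis) at high (left) and low (right) temperature, with LOC_Os01g16850 left out for its low counts. Red points are tap and blue points WT, filled where called at an adjusted p under 0.05, with bars of 1 standard error. MEL1 lies between 1.15 and 1.45, apart from the other members.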

How the data were processed

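Per the labels' protocols, rice inflorescence RNA for 24 libraries was purified by RNeasy columns and prepared by the SMARTER mRNA-Seq chemistry. Trimmomatic, HISAT2 and HTSeq were used with the IRGSP-1.0 genome, per the submitters' processing notes. Not given in the sources used here: versions, annotation and strand setting. The authors deposited raw read counts per locus in 1 table of 26480 loci, of which 70 have no value in the high-temperature columns and were left out. Groups follow the sample labels. The high-temperature mutant columns carry the name iHT, which was read as tap because WT is the 1 other genotype name at that temperature.

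The whole table was fitted with edgeR 4.0.16 (limma 3.58.1, R 4.3.3): TMM, filterByExpr, and a robust quasi-likelihood model of 8 group means with 16 residual degrees of freedom. P-values were adjusted by the Benjamini-Hochberg method over 23658 loci within each contrast, and the fit was tested on simulated data. Library values are given for members with known reproductive or meristem roles, for members called with a log2 difference of at least 1 (and 1 CPM or more on average in a compared group) in a genotype, interaction or length contrast, and for the largest rise and fall in each temperature contrast. The members and pathway lists were chosen with earlier results of these data known. The contrast of the length step between genotypes was added later. Alternatives were RLE size factors, library totals, no count filter, DESeq2 1.42.0 and smaller sets of libraries. Others were the replicate number as a block, leaving out each library, and, chosen after seeing the data, leaving out the 3 low libraries. Replicates differed beyond counting noise (chi-square per degree of freedom of 3.386 to 30.78), so no library was counted as a duplicate. No label says whether replicates are separate plants, and the spread behind each p-value may therefore be technical.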

Additional observations from a re-analysis of the deposited data

Results flagged for a closer look

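For these members the difference between tap and WT at high temperature differed from that at low temperature, as tested by the interaction term in edgeR's quasi-likelihood model. At 3 mm the interaction, on the log2 scale, was -1.20 for LOC_Os01g16870, -0.93 for DCL3b, -0.84 for LOC_Os04g47870, -0.81 for LOC_Os03g57560, -0.66 for LOC_Os02g45070, -0.60 for LOC_Os04g06770 and -0.41 for SHL4/AGO7. The calls of all but LOC_Os03g57560 held with any 1 library left out. LOC_Os01g16850 had a fitted value of 3.02 at 3 mm from at most 18 counts in a library, which is not read as a fold. Leaving out 1 library gave it 2.50 to 5.76 and ended the call in 10 of 12 fits.

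At 2 mm the interaction was -1.27 for LOC_Os04g47870, -1.14 for LOC_Os01g16870, -0.81 for LOC_Os02g45070, -0.68 for LOC_Os04g06770, -0.66 for RDR1, -0.56 for DCL3b, -0.55 for LOC_Os02g58490, -0.47 for DCL4, -0.45 for SGS3 and -0.37 for SHL4/AGO7. At 2 mm the calls of DCL3b, LOC_Os02g58490, DCL4, SGS3 and SHL4/AGO7 were each lost without any of 6 or more of the 12 libraries, and that of SGS3 was -0.26 (adjusted p = 0.207) without WT replicate 1 at high temperature. The gap test for single values was not run, since groups held 3.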

How the results depend on the processing

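Leaving out 1 library at a time gave 13 to 18 called members (18 with all libraries) for the genotypes at 3 mm and high temperature, and 14 to 18 (18) at 2 mm. At low temperature it gave 5 to 8 (8) at 3 mm and 4 to 7 (8) at 2 mm. Of the 23946 to 24018 loci tested in such fits, 6904 to 8757, 6717 to 8817, 1784 to 2381 and 2408 to 2735 were called, in the same order. For high against low temperature, leaving out 1 library gave 19 to 21 (21) members in tap at 3 mm and 17 to 20 (20) at 2 mm. In WT it gave 17 to 20 (19) at 3 mm and 21 to 24 (24) at 2 mm. Over all loci 15382 to 15685, 15362 to 15877, 14507 to 14938 and 14211 to 14359 were called, in the same order. The interaction gave 6 to 12 (8) members at 3 mm and 5 to 11 (10) at 2 mm, beside 5136 to 6530 and 5185 to 6691 of all loci. For 3 mm against 2 mm, leaving out 1 library gave 1 to 4 (3) members in tap and 1 to 2 (2) in WT at high temperature. At low temperature it gave 1 to 1 (1) in each genotype. Over all loci 77 to 2298 were called in tap and 755 to 1762 in WT at high temperature. The low-temperature calls over all loci were 106 to 215 in tap and 4 to 94 in WT. With the libraries of 1 temperature alone, the length comparison at high temperature called 1 member in tap and 1 in WT, beside 85 and 851 of 21396 loci. With no filter on low counts it called 1 in WT, beside 1435 of 26410 loci. Without the 3 low libraries the length comparison called 5 in WT at high temperature (3 higher and 2 lower), against 9.2% of all loci. At low temperature it then called 2 in tap and 2 in WT, against 1.69% and 0.622% of all loci. The cause was not tested. No called member difference changed sign under any alternative run. Some uncalled differences of tested members did under at least 1, up to a size of 0.4966 on the log2 scale in the main fit. Among them were DCL3a and DCL4 for genotype at 3 mm and high temperature (0.05 and 0.05 without the 3 low libraries). For the members chosen for library values by the rule above, 529 of 594 called values stayed called with 1 library left out and 65 did not. Under the other settings 581 of 605 stayed called and 24 did not. The other members, among them SGS3, RDR6, WAF1/HEN1 and DCL4, are not in these counts. Replicate numbers were not taken to pair the libraries, as the lowest correlation of same-numbered deviations was -0.127 to 0.01 over the comparisons. Single correlations reached 0.157 (replicate 1, tap, 3 mm against 2 mm at high temperature) and 0.132 (replicate 2, genotype at 2 mm and high temperature). With the replicate number as a block, 18 and 19 members were called for genotype at high temperature (3 mm and 2 mm), and 8 and 8 at low temperature. Of all 23658 loci, 8814 and 8759, and 2804 and 3582, were then called. For temperature the block gave 21 and 20 members in tap and 20 and 24 in WT, and for the interaction 7 and 11. The calls over all loci were 16262 and 16321 in tap, 15556 and 15118 in WT, and 6294 and 6365 for the interaction. Depth limits LOC_Os01g16850 and the 3 untested Argonautes.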
